A study of Mus musculus with 9 samples.

Results

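Transcripts of the serine/arginine-rich (SR) splicing factors were followed in cultured mouse round spermatids (RS). The members were the 10 genes of the deposited table named Srsf1 to Srsf7, Srsf9, Srsf10 and Srsf11. Each name matched 1 of the 55414 genes listed, and all 10 passed the filter on low counts and were among the 25128 genes tested. RS from testes, labelled as of WT genotype, were incubated for 24 h in 1 of 3 ways, with 3 RNA libraries for each. The vehicle group received 0.15% DMSO, the second group 24 mM oxamate, which inhibits lactate dehydrogenase and so lowers the cells' L-2-hydroxyglutarate (L-2HG), and the third group 24 mM oxamate together with 0.3 mM octyl-L-2HG, an ester of L-2HG that enters cells. DMSO at 0.15% was present in all 3 groups. No group received octyl-L-2HG without oxamate, so an effect of octyl-L-2HG is measured here only on top of oxamate. In the study's methods testes came from males carrying Stra8-iCre and a fluorescent reporter, and germ cells were sorted by the brightness of tdTomato, while the labels give the genotype only as WT. The sources used here do not say whether the 3 libraries of a group came from separate animals. The p-values therefore measure the spread between these libraries, which may in part be technical.

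SR proteins carry 1 or more RNA recognition motifs and a tail rich in alternating arginine and serine. They bind enhancer sequences in exons and bring the U1 and U2 particles to the neighbouring splice sites. SRPK kinases phosphorylate the tail in the cytoplasm, the import receptor transportin 3 carries the protein into the nucleus, and CLK kinases phosphorylate it further and release it from nuclear speckles. Most SR genes also hold a poison exon that, once included, sends the transcript to nonsense-mediated decay, by which SR proteins limit their own amounts. In male germ cells alternative splicing is widespread, and round spermatids splice and store many mRNAs before transcription ends during spermatid elongation.

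The libraries held 32339533 to 39888396 counted reads and the members had 273 to 3635 raw counts in a library. No library repeated another, since the chi-square per degree of freedom between libraries of a group lay between 1.98 and 20.7. Oxamate library 4 lay apart from oxamate libraries 5 and 6, and that pair of libraries was the most alike within any group. Vehicle library 1 differed more from vehicle libraries 2 and 3 (10.7 and 10.1) than these did from each other (5.86). All 15 round spermatid markers listed were above 1 CPM (counts scaled to library size) on average, with a summed level of 2960 to 3436 CPM. Their summed level was lowest with both compounds (2960 to 2999 CPM) and highest with vehicle (3306 to 3436 CPM). The 12 spermatocyte markers summed to 1139 to 1237 CPM with vehicle, 1119 to 1141 with oxamate and 1184 to 1246 with both compounds, so that the last 2 groups did not overlap, and octyl-L-2HG added to oxamate raised 2 of them and lowered 1. The lists for spermatogonia and for the somatic cells of the testis each summed to at most 17.5 CPM. Endothelial markers summed to 16.0 to 17.5 CPM with vehicle and 13.3 to 14.8 CPM with both compounds, macrophage markers to 4.23 to 4.86 and 3.0 to 3.57 CPM, and peritubular myoid markers to 3.46 to 4.05 and 2.65 to 2.94 CPM. Fshr of Sertoli cells and Lyz2 of macrophages had 0 counts in all libraries. Of the round spermatid markers, 4 were called lower by oxamate, 7 by octyl-L-2HG added to it, and with both compounds 9 were below vehicle and 2 above. The part of these shifts in the results below was not tested, and in bulk RNA fewer cells of a type cannot be told apart from less RNA per cell.

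The members whose RNA moved lie on different chromosomes, and the 250 bases upstream of their starts are shown because the members that rose and those that fell can be compared there. The sequences come from RefSeq on GRCm38.p6 and read 5′ to 3′ toward the transcription start. All 10 members matched an entry. For genes with several starts (Srsf4 and Srsf11) the most upstream one was taken. Bases soon after the start used lie in a GENCODE transcript of the gene for all members but Srsf4 and Srsf6. Capitals mark on either strand the TATA box TATAAA, the CCAAT box, the GC box GGGCGG, the cyclic AMP response element core TGACG, and the ETS letters CCGGAAG.
Srsf4, chr4:131873387-131873636, plus strand: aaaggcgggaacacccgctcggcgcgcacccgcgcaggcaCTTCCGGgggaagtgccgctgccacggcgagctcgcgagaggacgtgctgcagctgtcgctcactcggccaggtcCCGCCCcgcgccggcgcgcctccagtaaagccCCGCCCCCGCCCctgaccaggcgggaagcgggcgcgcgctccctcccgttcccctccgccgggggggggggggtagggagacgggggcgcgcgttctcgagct
Srsf5, chr12:80945249-80945498, plus strand: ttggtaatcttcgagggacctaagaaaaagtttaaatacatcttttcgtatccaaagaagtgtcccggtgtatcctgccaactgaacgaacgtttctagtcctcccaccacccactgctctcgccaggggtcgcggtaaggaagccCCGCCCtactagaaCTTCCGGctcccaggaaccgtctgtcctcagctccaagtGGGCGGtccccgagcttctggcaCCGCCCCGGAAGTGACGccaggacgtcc
Srsf6, chr2:162931258-162931507, plus strand: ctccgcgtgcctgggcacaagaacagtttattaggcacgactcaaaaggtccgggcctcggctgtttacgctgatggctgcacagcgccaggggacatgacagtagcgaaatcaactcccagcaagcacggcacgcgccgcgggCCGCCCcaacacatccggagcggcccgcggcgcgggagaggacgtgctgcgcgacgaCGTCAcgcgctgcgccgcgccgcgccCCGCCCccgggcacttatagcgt
Srsf7, chr17:80207306-80207555, minus strand: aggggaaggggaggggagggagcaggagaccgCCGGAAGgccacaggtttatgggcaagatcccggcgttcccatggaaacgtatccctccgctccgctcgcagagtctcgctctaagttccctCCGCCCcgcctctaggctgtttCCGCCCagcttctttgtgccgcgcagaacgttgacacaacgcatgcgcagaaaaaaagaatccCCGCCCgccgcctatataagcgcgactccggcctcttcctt
Srsf11, chr3:158036607-158036856, minus strand: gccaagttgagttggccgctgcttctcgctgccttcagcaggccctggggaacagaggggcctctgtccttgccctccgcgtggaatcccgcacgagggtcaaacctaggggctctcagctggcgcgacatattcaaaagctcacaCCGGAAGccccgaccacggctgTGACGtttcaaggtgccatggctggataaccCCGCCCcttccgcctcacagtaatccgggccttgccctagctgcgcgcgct
The GC box GGGCGG occurred in 9 of the 10 members, in all but Srsf3, against 33% of the 27025 genes with a promoter in the table. The members' windows held 56.8% to 77.2% G and C, with a median of 66.8%, against a median of 52% over all genes. TGACG, the shared part of cyclic AMP response elements, occurred in 6 members and in 17.8% of all genes, and the whole palindrome TGACGTCA in none of the members and in 1.6% of all genes. The ETS letters CCGGAAG occurred in 4 members (Srsf4, Srsf5, Srsf7 and Srsf11) and in 7.07% of all genes. In Srsf5 a copy of them overlaps a GC box. TATAAA occurred in Srsf2 and Srsf3 only (13% of all genes), and CCAAT in Srsf2, Srsf3 and Srsf10 (34.5% of all genes). The E-box CACGTG (6.04% of all genes) and the palindromic NRF1 motif (0.777%) were found in no member's window. Srsf4 and Srsf5, whose transcripts moved in opposite directions, both held the GC box and the ETS letters. For Srsf4 this is before a start without a GENCODE match. These matches describe the sequence and show no binding. The shares over all genes were not matched to the members for expression or for G and C content.

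In the vehicle libraries, levels were compared per kilobase (kb) of exon, as normalized counts divided by the length of all annotated exons. Srsf5 had the highest level, 777 ± 49.9 normalized counts per kb (SD, n = 3), followed by Srsf7 with 524 ± 4.54 and Srsf2 with 396 ± 29.6. Srsf5 binds purine-rich exonic enhancers, Srsf7 carries a zinc knuckle beside its RNA recognition motif, and Srsf2 is the classical marker of nuclear speckles. Srsf4 followed with 233 ± 14.2, Srsf9 with 193 ± 4.0, Srsf11 with 152 ± 18.7 and Srsf10 with 140 ± 5.65 normalized counts per kb. The lowest levels were those of Srsf1, the founding member of the family, with 102 ± 9.84, Srsf3, the smallest, with 77.0 ± 2.79, and Srsf6 with 70.8 ± 5.43. Neighbours in this order had separate library ranges except Srsf11 with Srsf10 and Srsf3 with Srsf6. When the longest transcript was used as the length, the first 3 places were unchanged, but Srsf11 moved from place 6 to 4, with 413 normalized counts per kb, Srsf9 moved from place 5 to 7, behind Srsf10 (229 against 261), and Srsf3 passed Srsf1.

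The make-up of the pool of SR transcripts shifted. The summed level of the 10 members was 11074 ± 284 with vehicle (SD, n = 3, normalized counts), 11280 ± 237 after oxamate and 10882 ± 215 after both compounds, so that vehicle (10785 to 11351) overlapped both other groups, while the libraries with both compounds (10633 to 11009) all lay below those with oxamate (11016 to 11476). Per kb the libraries with both compounds (2509 to 2613) lay below vehicle (2628 to 2721) and oxamate (2710 to 2749). Per kb, Srsf5 took 29.1% ± 1.34 of the summed level in the vehicle group, 25.3% ± 2.20 in the oxamate group and 22.8% ± 1.29 in the joint treatment group (SD, n = 3). Srsf4 took 8.76%, 11.3% and 11.9% in the same order, and Srsf11 5.69%, 6.38% and 7.61%. By this length, that of all annotated exons, Srsf5, Srsf7, Srsf2 and Srsf4 kept places 1 to 4 in all 3 groups. These shares rest on the same counts as the tests that follow and were not tested on their own.

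**Figure D1:**
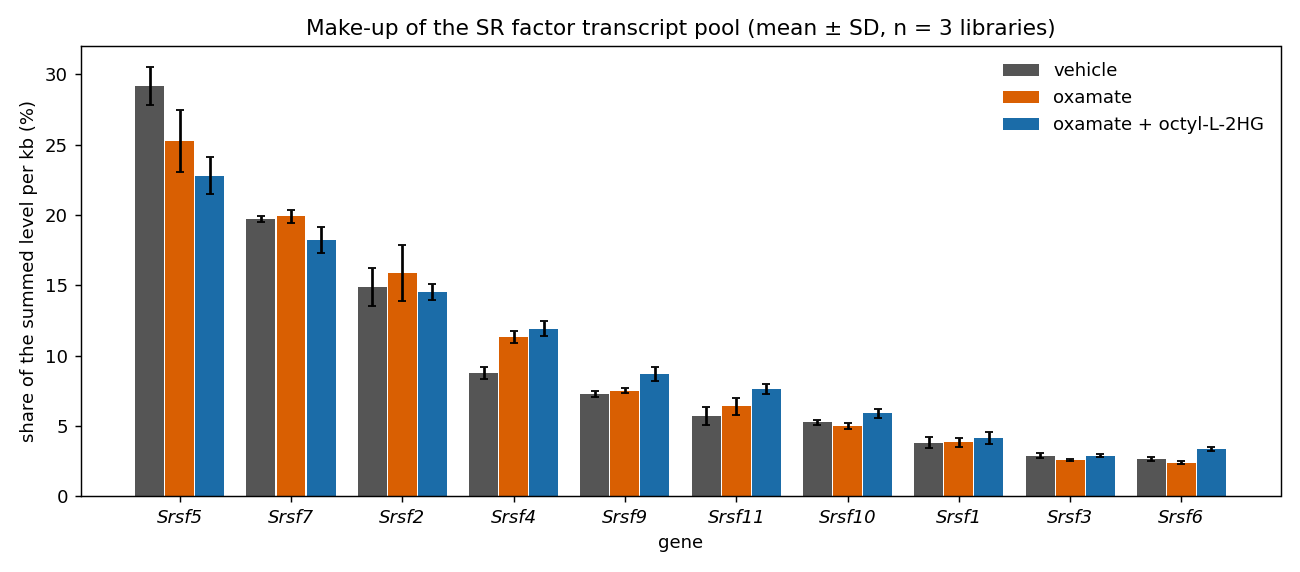
Share of each SR gene in the summed level per kb of the 10 genes (y axis, percent) for each gene (x axis), as the mean of 3 libraries with SD bars. Srsf5 has 29.1% with vehicle and 22.8% with both compounds, and Srsf4 8.76% and 11.9%.

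Across the 3 groups, 5 of the 10 members passed the threshold of 0.05 in edgeR's quasi-likelihood test for any difference, after Benjamini-Hochberg adjustment (BH) over all genes tested. They were Srsf4, Srsf5, Srsf6, Srsf7 and Srsf11. The same test called 19.8% of all genes, and 33.5% of the 10715 genes averaging 100 normalized counts or more, called well-expressed here, to which all members belong. The count fell to 2 or 3 members without any 1 of the libraries with both compounds, that is to 3 without library 7, 2 without library 8 and 3 without library 9.

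**Figure D2:**
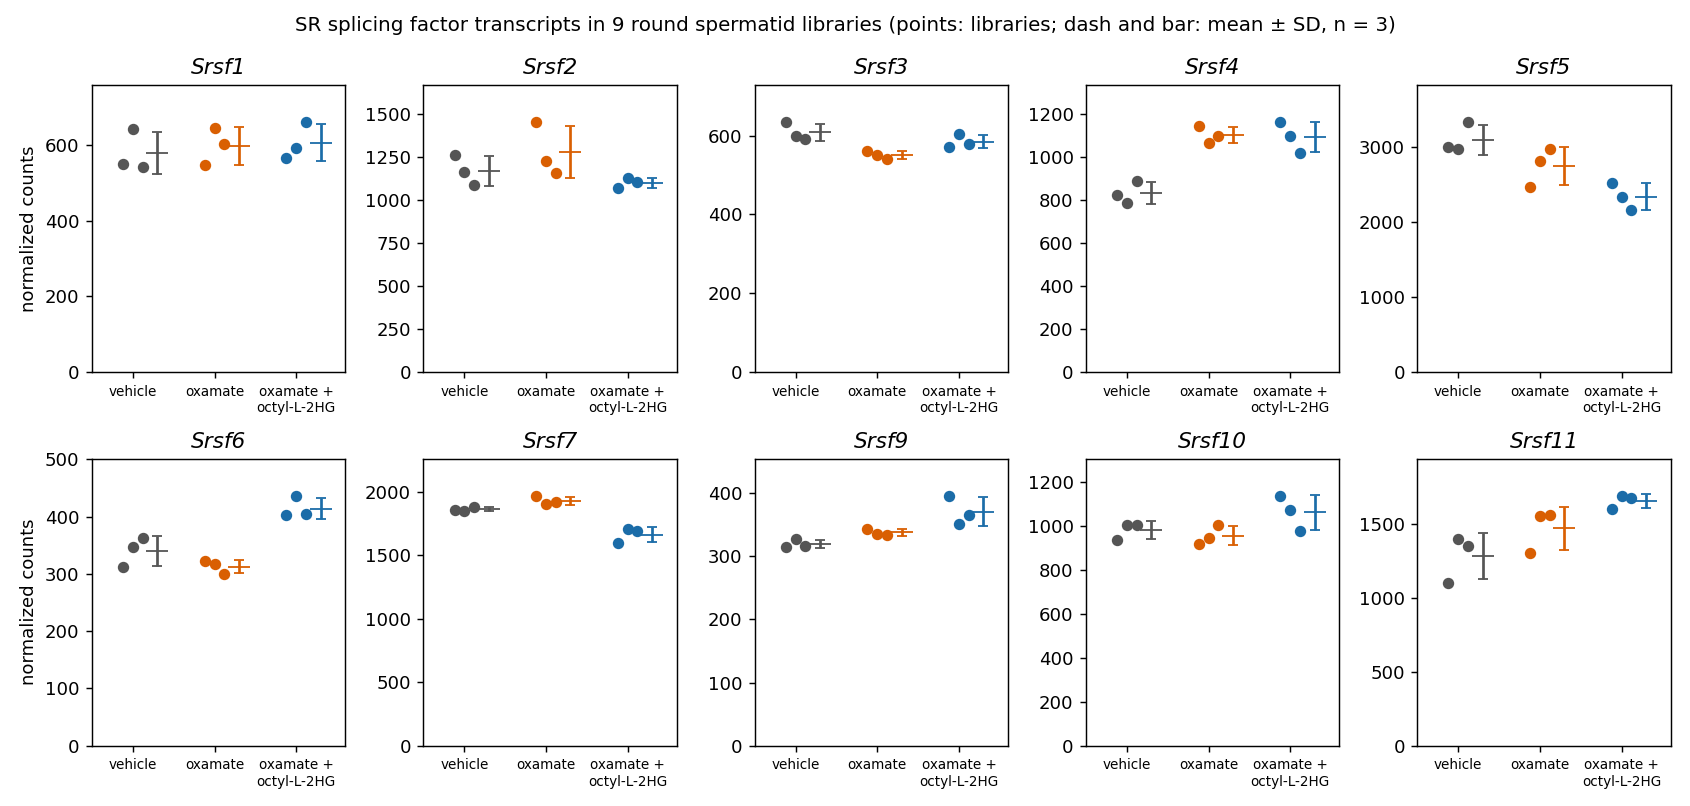
Normalized counts (y axis, from 0) of each SR gene in the 9 libraries (points), with the group mean and SD (n = 3) beside them, for vehicle, oxamate and oxamate with octyl-L-2HG. Srsf4 is higher in every treated library than in every vehicle library, Srsf5 is lower in every library with both compounds than in every vehicle library, and Srsf6 stands highest with both compounds.

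Oxamate against vehicle asks which transcripts move when lactate dehydrogenase is inhibited and L-2HG is low. Of the 10 members only Srsf4 was called, as higher with oxamate. Over all genes tested, 3.97% were higher and 1.22% lower in this comparison, 5.19% in all, and among well-expressed genes 8.08% and 1.59%, 9.67% in all, so 1 of 10 is close to the background. At an unadjusted p-value under 0.05, Srsf4 and Srsf11 were higher and Srsf5 was lower. The median log2 fold change of the members was 0.05, against -0.01 over all genes tested and 0.01 over the well-expressed.

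Srsf4 encodes the member with the longest arginine/serine tail of the Srsf4, Srsf5 and Srsf6 subgroup. Its vehicle libraries held 821, 787 and 887 normalized counts and its oxamate libraries 1140, 1064 and 1095. The groups did not overlap, and oxamate raised Srsf4 by 32.7%, a log2 fold change of 0.41 (standard error, SE, 0.08, edgeR quasi-likelihood BH-adjusted p = 0.00197). The call held in all 16 alternatives, with a log2 fold change between 0.33 and 0.45. Among well-expressed genes, Srsf4 stood at percentile 95.9 for this difference.

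The other 9 members did not pass the test for oxamate against vehicle. Srsf5 had 2998, 2972 and 3329 normalized counts with vehicle and 2464, 2813 and 2968 with oxamate. The highest oxamate library lay just under the lowest vehicle library, and the log2 fold change was -0.17 (95% interval -0.33 to -0.01, edgeR quasi-likelihood BH-adjusted p = 0.25). Srsf11, which interacts with the U2 auxiliary factor, had a log2 fold change of 0.20 (95% interval 0.02 to 0.38, edgeR quasi-likelihood BH-adjusted p = 0.233). Without oxamate library 4 that of Srsf11 was 0.28 and passed the test (edgeR adjusted p = 0.015), the only alternative in which a further member did so. Srsf3, Srsf7 and Srsf9 also had oxamate libraries outside the vehicle range. Srsf3 had 593 to 634 normalized counts with vehicle and 542 to 561 with oxamate, which did not pass the test (log2 fold change -0.14, 95% interval -0.30 to 0.02). Groups that do not overlap were found in 5 members, and in 21.3% of all genes tested and 27.3% of the well-expressed. For Srsf1, Srsf2, Srsf6, Srsf7, Srsf9 and Srsf10 log2 fold changes ran from -0.12 to 0.13, with 95% intervals inside -0.31 to 0.31.

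Adding octyl-L-2HG to oxamate asks which transcripts move when L-2HG is supplied to inhibited cells. Here 3 members were called. Srsf6 rose and Srsf5 and Srsf7 fell. Over all genes tested 3.18% were higher and 8.06% lower, 11.2% in all, and for well-expressed genes these shares were 7.06%, 12.7% and 19.8%. At an unadjusted p-value under 0.05, Srsf2 was lower as well. The median log2 fold change of the members was 0.03, against -0.04 over all genes tested and 0.01 over the well-expressed.

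Srsf6, from the same subgroup as Srsf4 and Srsf5, regulates the choice of exons. It had 322, 317 and 299 normalized counts with oxamate and 402, 436 and 404 with both compounds. The groups did not overlap, and the rise was 29.9%, a log2 fold change of 0.38 (SE 0.09, edgeR quasi-likelihood BH-adjusted p = 0.00919). It was called in 15 of 16 alternatives, and without library 8 of the group with both compounds the log2 fold change was 0.34 (edgeR adjusted p = 0.0634). Its percentile among well-expressed genes was 98.6. Srsf6 itself had not moved with oxamate beyond its error (312 to 363 normalized counts with vehicle, log2 fold change -0.12, 95% interval -0.31 to 0.07).

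Srsf7, which binds exonic enhancers and also takes part in 3′ end formation and mRNA export, had 1964, 1902 and 1915 normalized counts with oxamate. With both compounds it had 1592, 1703 and 1687, below every oxamate and every vehicle library. Its log2 fold change against oxamate was -0.24 (SE 0.07, edgeR quasi-likelihood BH-adjusted p = 0.0219), a fall of 15.4%. The call was kept in 11 of 16 alternatives and was lost without a filter on low counts and without oxamate library 5 or library 7, 8 or 9 of the group with both compounds, with a log2 fold change between -0.28 and -0.20 throughout. For Srsf5 the libraries with both compounds held 2519, 2334 and 2163 normalized counts, of which the first lay above the lowest oxamate library. Its fall of 16.4% (log2 fold change -0.26, SE 0.08, edgeR quasi-likelihood BH-adjusted p = 0.033) was called in 7 of 16 alternatives. It was lost with DESeq2, with DESeq2's size factors, with no filter, with only the compared groups in the fit and without vehicle library 3, oxamate library 5 or 6, or library 8 or 9 with both compounds, with adjusted p-values up to 0.173.

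Srsf2 had 1453, 1229 and 1159 normalized counts with oxamate and 1071, 1127 and 1107 with both compounds. Its groups did not overlap, but the difference was not called (log2 fold change -0.24, 95% interval -0.42 to -0.06, edgeR quasi-likelihood BH-adjusted p = 0.0762). It passed with total counts as the scaling and without oxamate library 6. For Srsf4, the member raised by oxamate, no change was called when octyl-L-2HG was added. Its log2 fold change was -0.04 (95% interval -0.20 to 0.12, edgeR adjusted p = 0.826). Groups that do not overlap were found in 6 members, against 28.8% of all genes tested and 42.7% of the well-expressed, with Srsf3, Srsf6, Srsf9 and Srsf11 higher and Srsf2 and Srsf7 lower. For Srsf1, Srsf3, Srsf9, Srsf10 and Srsf11 log2 fold changes ran from -0.0014 to 0.14 and none was called.

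Cells with both compounds against vehicle show where the transcripts ended after the joint treatment. Srsf4, Srsf6 and Srsf11 were higher and Srsf5 was lower, 4 of 10 members. Over all genes tested 7.48% were higher and 10.6% lower, 18% in all, and for well-expressed genes these shares were 16%, 13.6% and 29.5%. The 3 comparisons share their libraries, so that this one is not independent of the others. At an unadjusted p-value under 0.05, Srsf9 was higher and Srsf7 was lower as well. Groups did not overlap in 6 members, against 36.5% of all genes tested and 53% of the well-expressed. Over all members the median log2 fold change was 0.07, against -0.05 over all genes tested and 0.03 over the well-expressed.

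Srsf5 was lower than vehicle by 25.7% after the joint treatment, with a log2 fold change of -0.43 (SE 0.08, edgeR quasi-likelihood BH-adjusted p = 0.000398). All 3 libraries with both compounds, at 2163 to 2519 normalized counts, lay below the vehicle range of 2972 to 3329. This was called in all 16 alternatives, between -0.49 and -0.36. Srsf4 stayed above vehicle with 1159, 1096 and 1019 normalized counts, a log2 fold change of 0.37 (SE 0.08, edgeR adjusted p = 0.00145), also called in all 16 alternatives. Of the 8 calls over the 3 comparisons, only these and that of Srsf4 with oxamate held in all 16 alternatives.

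Srsf11 had 1102, 1395 and 1351 normalized counts in the vehicle libraries, 1303, 1551 and 1557 after oxamate and 1597, 1686 and 1673 after the joint treatment. The vehicle and joint treatment libraries did not overlap, and the log2 fold change was 0.34 (SE 0.09, edgeR quasi-likelihood BH-adjusted p = 0.00811), a rise of 26.9%. Vehicle library 1 was the lowest of the 9, and without it the log2 fold change was 0.25 and the call was lost (edgeR adjusted p = 0.0542). Srsf6 was above vehicle by 19.7% (log2 fold change 0.26, SE 0.09, edgeR quasi-likelihood BH-adjusted p = 0.0484). That call was kept in 8 of 16 alternatives only, with adjusted p-values up to 0.189, and was lost with DESeq2, with total counts and without vehicle library 1 or 2, oxamate library 5 or library 7, 8 or 9. Without vehicle library 1, 2 members were called. Srsf7 lay below vehicle in all 3 libraries, but the difference was not called (log2 fold change -0.19, 95% interval -0.32 to -0.05, edgeR adjusted p = 0.0568). It was called in 4 of 16 alternatives, with total counts, with filterByExpr, with only the groups compared and without oxamate library 4. Srsf9, a small member related to Srsf1, had 315, 327 and 317 normalized counts with vehicle and 395, 350 and 365 with both compounds, without a call (log2 fold change 0.19, edgeR adjusted p = 0.143) except with length and GC trends removed.

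Srsf1, Srsf2, Srsf3 and Srsf10 did not differ between vehicle and the joint treatment by the test. Srsf1 had 580 ± 56.2 (SD, n = 3), 598 ± 49.2 and 607 ± 48.3 normalized counts in the vehicle, oxamate and joint treatment groups, and its 95% intervals ran from -0.20 to 0.24 on the log2 scale over the 3 comparisons. Srsf10, which turns into a splicing repressor when dephosphorylated under heat stress, had 979 ± 39.6, 955 ± 44.6 and 1061 ± 80.1 normalized counts. Its intervals ran from -0.19 to 0.28. Changes within these intervals remain possible with 3 libraries a group. Srsf12, a family member outside the 10, was sparse at 31.2 ± 2.49, 32.4 ± 6.98 and 42.4 ± 1.43 normalized counts in the vehicle, oxamate and joint treatment groups, and was called in no comparison.

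**Figure D3:**
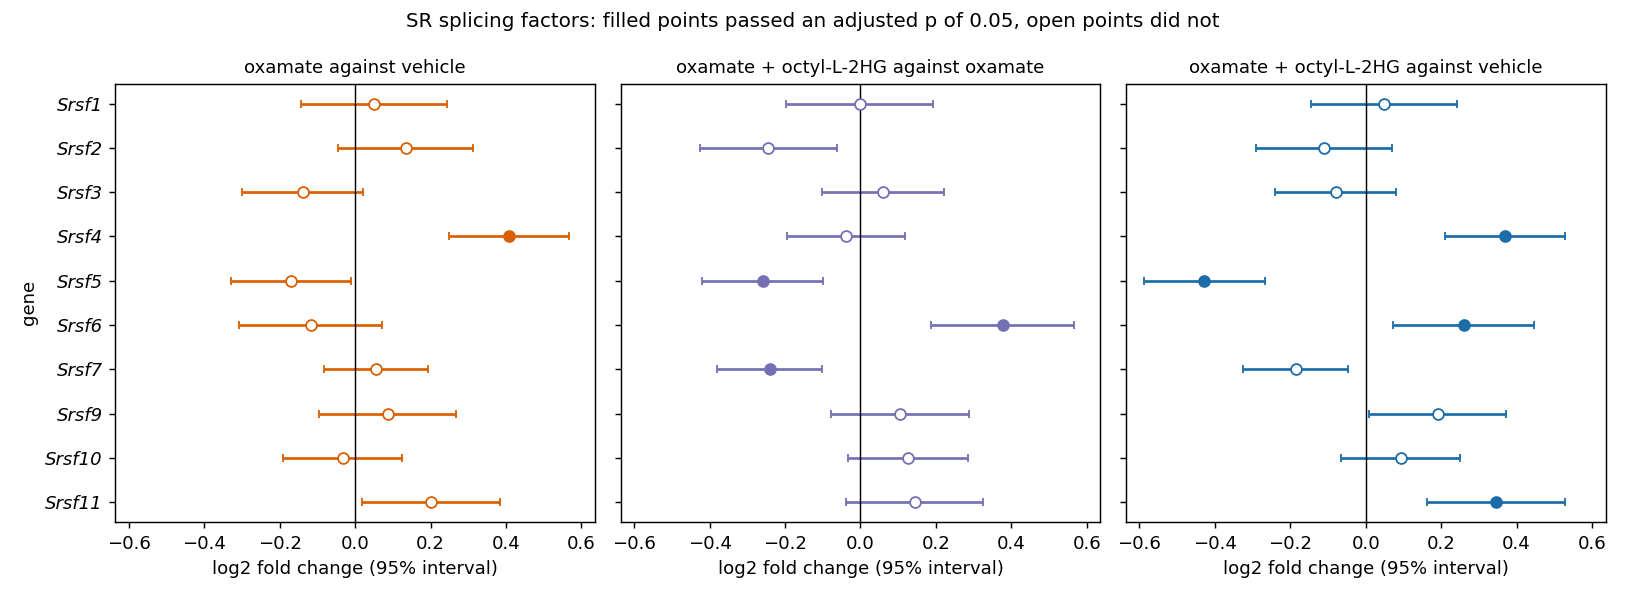
Log2 fold change (x axis) of each SR gene (y axis) with its 95% interval in the 3 comparisons, with filled points for an adjusted p-value under 0.05. Srsf4 lies on the higher side in the left and right panels, Srsf5 furthest to the left in the right panel (-0.43), and Srsf6 furthest to the right in the middle one (0.38).

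Gene counts do not tell productive from unproductive isoforms. In GENCODE annotation, 9 of the 10 members, all but Srsf10, have a transcript labelled as a target of nonsense-mediated decay, against 25.0% of 16684 protein-coding genes tested. A transcript with a retained intron is annotated for 8 of 10, against 50.2%. The members have a median of 7.5 annotated transcripts, against 4 for those protein-coding genes, and the shares were not matched for this number. Srsf11 has 3 transcripts labelled for decay and 11 with a retained intron out of 19. Which isoforms carried the changes described above was not analysed here.

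The genes with profiles most like those of the 2 members with the lowest p across the groups were found among the other 10714 well-expressed genes. The measure was the root mean square difference of log2 CPM, centred per gene, over the 9 libraries. For Srsf4 they were Baz2a (0.028), Cmklr1 (0.035) and Cars (0.037). For Srsf5 they were Prkar2a (0.038), Tex29 (0.045) and Fam209 (0.046). Baz2a moved by 0.40 on the log2 scale with oxamate and by -0.02 with octyl-L-2HG added, and Prkar2a by -0.16 and -0.24. They were picked for this likeness, so their changes are descriptions.

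The enzymes that phosphorylate SR proteins and the nuclear import receptors Tnpo3 and Tnpo1 were listed together. They were described for oxamate alone, for octyl-L-2HG added to it (the second step) and for both compounds against vehicle. Of the 13 listed, 12 were tested, since Srpk3 had 3 counts in all. Oxamate raised 1, octyl-L-2HG added to oxamate raised 4 and lowered 3, and both compounds against vehicle raised 5 and lowered 2. Calls over all genes also grew from 5.19% with oxamate to 11.2% at the second step and 18% for both compounds, and for well-expressed genes from 9.67% to 19.8% and 29.5%. Oxamate raised 4 without oxamate library 4 but none by edgeR in 12 of 16 alternatives, among them 8 of the 9 fits with a library left out, while 3 to 6 were higher at an unadjusted p-value under 0.05 over the alternatives. With length and GC trends removed Srpk1 was called lower. The second step raised 1 and lowered 1 without library 7 with both compounds and raised 2 and lowered 2 without library 8, library 9 or oxamate library 5. The median log2 fold change was 0.12, 0.20 and 0.19 in the 3 comparisons, against -0.01, -0.04 and -0.05 over all genes tested.

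Among the CLK kinases, Clk1, Clk3 and Clk4 fell when octyl-L-2HG was added to oxamate. Clk3 had 7030 ± 150 (SD, n = 3), 8022 ± 47.0 and 6265 ± 94.5 normalized counts in the vehicle, oxamate and joint treatment groups, and its fall was -0.38 on the log2 scale (SE 0.06, edgeR quasi-likelihood BH-adjusted p = 0.000209), called in all 16 alternatives. Clk4 had 1660 ± 130, 1568 ± 209 and 1213 ± 76.2 normalized counts, a log2 fold change of -0.40 (edgeR adjusted p = 0.00641, called in 15 of 16 alternatives, not without library 7 with both compounds, where the adjusted p was 0.0633). Clk1 had 526 ± 52.1, 630 ± 104 and 490 ± 36.9, a log2 fold change of -0.39 (edgeR adjusted p = 0.0224), and 10 of 16 alternatives kept the call. Its oxamate libraries were the most spread of the 3 groups, and without oxamate library 4 the rise of Clk1 with oxamate was called (log2 fold change 0.39, edgeR adjusted p = 0.00189). Clk2 had a log2 fold change of 0.08 at this step and was above vehicle by 0.33 with both compounds (edgeR quasi-likelihood BH-adjusted p = 0.00364).

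Both import receptors listed rose at the second step. Tnpo3, transportin 3, had 415 ± 27.6, 466 ± 20.8 and 597 ± 24.4 normalized counts in the vehicle, oxamate and joint treatment groups. Its log2 fold change was 0.33 at the second step (edgeR quasi-likelihood BH-adjusted p = 0.0136, called in 12 of 16 alternatives) and 0.51 against vehicle (edgeR adjusted p = 0.000202, called in 16 of 16). Tnpo1, a receptor that imports hnRNP proteins, went from 5634 ± 173 to 6528 ± 260 and 8221 ± 150 normalized counts. Its log2 fold change was 0.52 for both compounds against vehicle (edgeR adjusted p = 4.51e-06). The rise of Tnpo1 with oxamate alone (0.22, edgeR adjusted p = 0.045) was called in only 3 of 16 alternatives. Srpk1, a kinase of the cytoplasm with 19708 ± 241 normalized counts with vehicle, rose by 0.20 at the second step (edgeR adjusted p = 0.0271, called in 11 of 16). Srpk2 had log2 fold changes between -0.05 and 0.07. Top1, which besides relaxing DNA can phosphorylate SR proteins, rose by 0.36 at the second step (edgeR adjusted p = 0.0239, called in 13 of 16), and Akt1 was above vehicle by 0.41 with both compounds (edgeR adjusted p = 0.000482). Without library 7 with both compounds the calls of Clk1, Srpk1, Tnpo3 and Top1 at the second step were each lost, and so were those of Clk1, Srpk1 and Top1 without library 8, of Clk1, Srpk1 and Tnpo3 without library 9 or oxamate library 5, and of Clk1 and Tnpo3 without oxamate library 6. Prpf4b and Dyrk1a were called in no comparison. Against vehicle with both compounds, Clk4 stood at -0.47 (called in all 16 alternatives) and Clk3 at -0.19 (called in 8 of 16), and Clk1 was not called.

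**Figure D4:**
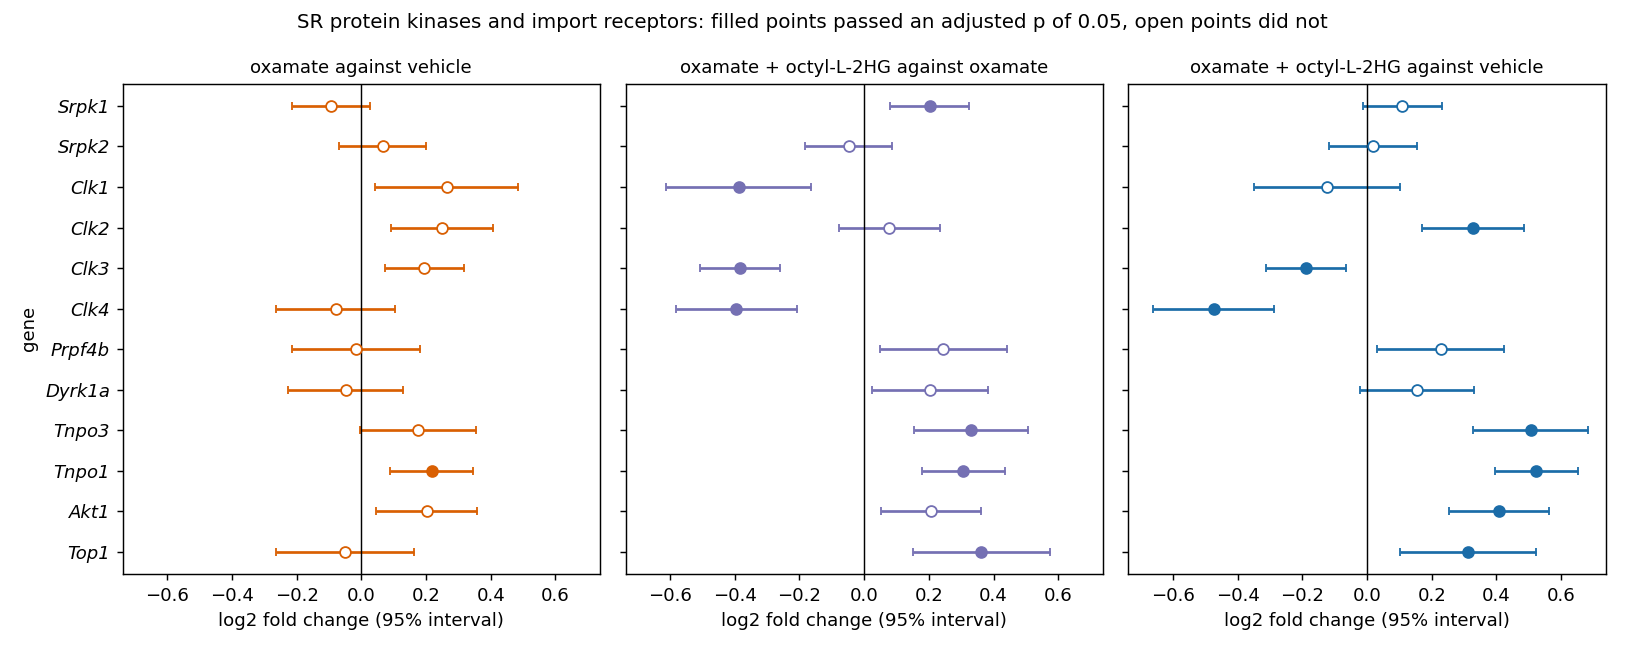
Log2 fold change (x axis) with 95% interval of 12 genes for SR protein kinases, kinase-like enzymes and import receptors (y axis) in the 3 comparisons, with filled points for an adjusted p-value under 0.05. Clk1, Clk3 and Clk4 lie near -0.4 in the middle panel, while Tnpo1 and Tnpo3 lie above 0.5 in the right panel.

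Among 31 SR-related coactivators, oxamate raised 4 and lowered none, and at the second step 4 rose and none fell. Both compounds against vehicle raised 12 and lowered 1. Of all well-expressed genes, 8.08%, 7.06% and 16% were higher in these comparisons and 1.59%, 12.7% and 13.6% lower. Over all genes tested 3.97%, 3.18% and 7.48% were higher and 1.22%, 8.06% and 10.6% lower. Some genes of the list average under 100 normalized counts. Counts over the 16 alternatives ran from 2 to 7, 1 to 9 and 8 to 18 genes raised, and at the second step 2 fell with total counts, without oxamate library 4 and with length and GC trends removed. Without library 7 or 8 with both compounds, the second step raised 1 and the last comparison 8, without oxamate library 4 oxamate raised 7 and the last comparison 18, and without vehicle library 2 oxamate raised 2. The median log2 fold change was 0.08, 0.17 and 0.24. Srrm2, a large scaffold of nuclear speckles, rose by 0.58 with oxamate and stood 0.77 above vehicle with both compounds on the log2 scale (edgeR quasi-likelihood BH-adjusted p = 2.72e-05 and 2.17e-07). Scaf1 rose by 0.37 with oxamate, called in 12 of 16 alternatives and not without vehicle library 2 or 3, in a fit of only these groups, or with length and GC trends removed, where it was 0.20. Pnn and Ppig rose by 0.51 and 0.47 at the second step, the latter not called without library 7 or 8 with both compounds, and U2af2, the large subunit of the factor that binds the polypyrimidine tract, was 0.32 below vehicle with both compounds (log2 fold change -0.32). That call held in 10 of 16 alternatives and was lost with DESeq2, without a filter, and without vehicle library 2 or 3 or library 8 or 9. The SR-like activators Tra2a and Tra2b were not called in any comparison.

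Of 27 hnRNP genes, which often oppose SR proteins at splice sites, 3 were raised and none lowered by oxamate, 3 rose and 2 fell at the second step, and 7 were above and 2 below vehicle with both compounds. Well-expressed genes were higher in 8.08%, 7.06% and 16% and lower in 1.59%, 12.7% and 13.6%. The 3 raised by oxamate became 7 without oxamate library 4. The 3 that rose at the second step became 0 by edgeR with total counts and without library 7, 8 or 9 with both compounds, where 4, 4, 5 and 9 were higher at an unadjusted p-value under 0.05, and 1 without oxamate library 5 or 6. They became 6 without a filter on low counts, and 7 rose and 4 fell with length and GC trends removed. The 7 above vehicle became 4 without library 7 or 8. The 2 lowered became 4 without oxamate library 4, both at the second step and against vehicle. The median log2 fold change of the list was 0.01, 0.09 and 0.10. Pcbp1 and Raly rose with oxamate by 0.51 and 0.46. Hnrnpa0 fell by 0.69 on the log2 scale at the second step (log2 fold change -0.69, edgeR quasi-likelihood BH-adjusted p = 2.18e-05) and was 0.85 below vehicle (log2 fold change -0.85). Hnrnpab had a log2 fold change of -0.22 and Hnrnpul2 and Ptbp3 of 0.43 and 0.26 at that step, while Hnrnpc was below vehicle (-0.37) and Hnrnpul1 above it (0.35) with both compounds. The call of Hnrnpab held in 7, that of Hnrnpul2 in 8 and that of Ptbp3 in 10 of 16 alternatives. Ptbp2, a repressor needed for germ cell splicing, was not called in any comparison, with log2 fold changes from -0.08 to 0.02.

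Of 21 proteins of the U1 and U2 particles, 1 was raised by oxamate, none was called by edgeR at the second step (3 had an unadjusted p-value under 0.05), and 1 was above and 2 below vehicle with both compounds. In these 3 comparisons, in that order, 3.97%, 3.18% and 7.48% of all genes tested were higher and 1.22%, 8.06% and 10.6% lower. Of well-expressed genes, 8.08%, 7.06% and 16% were higher and 1.59%, 12.7% and 13.6% lower. The list's median log2 fold changes were -0.04, -0.06 and -0.05. Without oxamate library 4, oxamate raised 2 and lowered 3, and over the alternatives 0 to 2 were above and 0 to 3 below vehicle with both compounds. Sf3a1 rose with oxamate by 0.32 (not called without vehicle library 2), and Sf3b6 (-0.55) and Snrpd2 (-0.23) were below vehicle with both compounds, the last in only 4 of 16 alternatives. Sf3b6 lost its call without library 9 with both compounds (log2 fold change -0.42, edgeR adjusted p = 0.0596). At the second step edgeR called 0 of 21, with 3 at an unadjusted p-value under 0.05, and the alternatives, DESeq2 included, called at most 1. Of 21 other splicing regulators, oxamate raised 3 and lowered none (1 without vehicle library 1 or 3), the second step raised 1 and lowered 2, and both compounds against vehicle raised 3 and lowered 3. In the same order, 8.08%, 7.06% and 16% of well-expressed genes were higher and 1.59%, 12.7% and 13.6% lower. Rbmxl2, the testis-specific relative of RBMX, had the largest fall among those called at the second step. Its log2 fold change was -0.77 at the second step (edgeR quasi-likelihood BH-adjusted p = 7.04e-05) and -0.90 against vehicle. Ddx17 fell at the second step (-0.43) and Tial1 rose (0.32, not called without library 7 with both compounds). Celf1 and Khdrbs1 rose with oxamate (0.45 and 0.32) and stayed above vehicle with both compounds (0.63 and 0.32), and Mbnl2 was below vehicle (-0.42). Khdrbs1 with oxamate was called in 12 of 16 alternatives, not in a fit of only these groups or without vehicle library 1 or 3 or oxamate library 6, and Mbnl2 in 12 of 16, not without vehicle library 2 or 3 or library 7 or 9.

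Among 15 factors of nonsense-mediated decay, the route that removes SR transcripts with poison exons, 5 were raised and none lowered by oxamate. At the second step 1 rose and 1 fell, and 6 were above and 2 below vehicle with both compounds. Of all genes tested 3.97% and of well-expressed genes 8.08% were higher with oxamate. For well-expressed genes 7.06% were higher and 12.7% lower at the second step, and 16% and 13.6% against vehicle. At the second step 4 rose and 4 fell without oxamate library 4, and 5 rose and 1 fell with length and GC trends removed. The median log2 fold change of the list was 0.19, 0.03 and 0.12 in the 3 comparisons. The kinase Smg1 rose at both steps, by 0.56 and 0.33 on the log2 scale, and stood 0.88 above vehicle (edgeR quasi-likelihood BH-adjusted p = 2.78e-08). Casc3 rose by 0.53 with oxamate. The exon junction proteins Rbm8a and Magoh were below vehicle with both compounds, with log2 fold changes of -0.49 and -0.44 (Magoh not without vehicle library 2, nor with length and GC trends removed, where it was -0.26), and Rbm8a fell at the second step (-0.51). With alternatives, the number of these factors raised by oxamate ran from 2 to 7, with 7 without oxamate library 4 and 2 or 3 without any other 1 library.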

How the data were processed

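RNA of round spermatids was sequenced by the authors in 9 poly(A) libraries, 3 per group. The authors trimmed the reads (cutadapt 2.10), aligned them to the mouse genome (GRCm39) with TopHat2 2.1.1 and took gene counts from HTSeq 2.01. They deposited raw counts and, as a second signal per gene, counts divided by a DESeq2 (1.36.0) size factor of each library, called normalized counts here. Versions follow the submitters' processing notes. The kit kept strand, but the strand setting of the counting is not given in the sources used here. How reads of genes overlapping on opposite strands were counted is therefore not known. No column of values went unused. Of 55414 genes, 6250 have no values.

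The test, for the 25128 genes with a summed count of 10 or more, was that of edgeR 4.0.16 under R 4.3.3 (TMM scaling, all libraries in 1 quasi-likelihood fit with robust estimation, group as the only term), with Benjamini-Hochberg adjustment and a threshold of 0.05. Standard errors and 95% intervals come from that fit. Group ranges were compared on normalized counts. Exon lengths and transcript labels came from GENCODE vM21 (GRCm38), an earlier build than the GRCm39 of the deposited counts, matched by identifier for 99.6% of genes tested. Alternatives were DESeq2 1.42.0, DESeq2 size factors, total counts, 2 other filters, fits of only the compared groups, each library left out and, chosen after seeing the data, removal of length and GC trends. The test was tested on simulated data. The members and lists were chosen with earlier results of these data known. The genes named are the members, Srsf12, the kinase and import list, and in each other list up to 2 genes with the largest rise and fall per comparison among those called and averaging 100 normalized counts or more. Tra2a, Tra2b and Ptbp2 were added after their values were seen.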

Additional observations from a re-analysis of the deposited data

How the results depend on the processing

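No paired analysis was possible because replicate numbers run from 1 to 9 and no group shares a number with another. Over 480 combinations of a member, a comparison and an alternative, 432 kept direction and call, 24 lost the call, 8 gained it and 16 changed sign, all 16 for values that were not called. For oxamate against vehicle, 1 member was called, and 2 without oxamate library 4 (range 1 to 2 with a library left out). For octyl-L-2HG added to oxamate 3 were called, and 1 without a filter on low counts, 1 without oxamate library 5, 1 without library 9 with both compounds, and 0 by edgeR without library 8, where 4 had an unadjusted p-value under 0.05 (range 0 to 3 with a library left out, and 4 with total counts). For both compounds against vehicle 4 were called, and 2 without vehicle library 1 (range 2 to 5 with a library left out). For any difference 5 were called (range 2 to 6). The cause was not tested. At the second step the log2 fold change of Srsf1, -0.001, became 0.024 with DESeq2, 0.024 with its size factors, 0.044 without a filter, 0.017 with filterByExpr and 0.020 with only the groups compared, and that of Srsf4 became 0.0062 without a filter. With both compounds against vehicle, Srsf1 became -0.016 with total counts and -0.015 with length and GC trends removed, and Srpk2 became -0.045 and -0.057. With a library left out, signs also changed for Srsf1 (-0.0085 to 0.137, -0.074 to 0.057 and -0.025 to 0.136 in the 3 comparisons), Srsf4 at the second step (-0.080 to 0.0052), Srpk2 against vehicle (-0.018 to 0.061) and, with oxamate alone, Srsf12 (-0.12 to 0.19), Clk4 (-0.14 to 0.024), Prpf4b (-0.10 to 0.034) and Top1 (-0.13 to 0.038). Over all genes, octyl-L-2HG added to oxamate gave 798 higher and 2025 lower, against 421 and 2516 with total counts. These became 1106 and 1831 with size factors and 1905 and 2189 with length and GC trends removed. They became 242 and 1154 without library 7 and 266 and 1199 without library 8. Both compounds against vehicle gave 1879 and 2655, against 1231 and 3367 with total counts. In that comparison more were higher than lower with DESeq2 (1985 and 1915) and without a filter (2690 and 2421). Oxamate against vehicle gave 1303 calls, 2288 without oxamate library 4 and 659 without vehicle library 2, so the shares over all genes move with these choices too. Scaling moved the median of all genes by at most 0.063 (total counts, -0.063). With 3 libraries a group, SEs of the members lay between 0.066 and 0.094 on the log2 scale, which limits what could be called.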
